A study of Mus musculus with 17 samples.

Results

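The beta cells of mice killed months after streptozotocin (STZ) were compared with those of mice killed days after it. A cell was taken as a beta cell when its scaled Ins2 value (per 100000 UMIs, see the processing notes) was at least 3000 and at least 3 times each of Gcg, Sst and Ppy, with Prss2 under 1500. This rule found 148 beta cells in 5 STZ libraries, of 910 beta cells and 2999 cells in all 17 libraries. The late arm held 89 cells, 57 from month 5 (STZ_M5) and 32 from month 9 (STZ_M9). The early arm held 59 cells, 25 from STZ_D6, 10 from day 12 replicate 1 and 24 from day 12 replicate 2 (both STZ_D12). The 3 control libraries held 359 beta cells and served as the reference level. All these animals were Ngn3-Cre; Rosa-RFP mice, in which Cre driven by an endocrine progenitor gene marks the islet lineage red, and RFP-positive pancreatic cells were sorted. The treated mice were males of 2 months given 1 intraperitoneal dose of 200 mg/kg STZ after fasting overnight, and carried insulin implants. The month 9 mice had their implants interrupted in the final 2 months. Controls were males described as of matched age that received citrate buffer. Their labelled age is the 2 months at injection, and the same 3 control libraries served both arms. A match with the late mice in age when killed is therefore not shown. The STZ_D6 library is read as day 6 from its label, while the design text describes the first time point as day 1. All mice were labelled adult. Nothing states how many animals gave a library or that replicates are separate animals, so p-values measure only the spread between these libraries.

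Beta cells make and release insulin in response to glucose, which enters mouse beta cells through the transporter GLUT2 (Slc2a2). STZ enters by the same route and damages DNA, so that it kills beta cells with some selectivity and activates p53 in cells that live on. Mature mouse beta cells express Ucn3, a late maturation gene, while injured or glucose-exposed beta cells are known to lose such genes and to express others, such as the progenitor-associated Aldh1a3.

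Ins1 and Iapp went with the label, but several beta-cell markers were lower than in controls. Ins1 and Iapp, an insulin gene and the amyloid peptide co-released with insulin, were at 25363 CPM or more in every one of the 5 STZ libraries (CPM, the library's UMIs scaled to a common total with TMM). Of 9 tested beta-cell markers, 2 were called lower early and 5 late against control, Ins1 among the latter. The 9 include Ins2, which the cell rule uses and which was not among those called. Their median log2 changes were -1.01 early and -1.53 late. Among all genes tested 0.302% were lower early and 0.541% late. Mafa, a beta-cell transcription factor, had 0 UMIs in all 8 libraries including controls. The beta cells of a library gave 573232 to 4383268 UMIs in the 5 STZ libraries and 1373185 to 13411734 in controls. The median per cell was 53884 to 69387 UMIs in early libraries, 67131 in STZ_M5 and 101422 in STZ_M9. No cell name was shared between libraries. Sequencing runs were read here from numbers in the raw data names, which are not labelled as runs. STZ_D12 replicate 2 had none. The late libraries shared 0 of these runs with the other early libraries or the controls. Time after STZ, the age of the mice and the run so read therefore cannot be told apart. Cells rich in a second hormone or in Prss2 made up 5.26% of STZ_M5 beta cells, 37.5% of STZ_M9, 12% of STZ_D6, and 50% and 16.7% of the STZ_D12 libraries. Cells with Ins2 at most 3000 above the threshold numbered 8 in STZ_M5, 8 in STZ_M9 and 1, 1 and 6 in the early libraries. Just below it, at 1500 to 3000, lay 38, 7, 5, 3 and 26 cells in the same order.

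The share of sorted cells that were beta cells was compared first. This share also depends on how many other cells were sorted. Beta cells were 37.3% of cells in STZ_M5 (57 of 153, exact 95% interval 29.6 to 45.4%) and 16.9% in STZ_M9 (32 of 189, 11.9 to 23.1%). They were 10.2% in STZ_D6, 4.59% in STZ_D12 replicate 1 and 13.2% in replicate 2. Both late libraries lay above all 3 early ones, and STZ_M5 stood well above STZ_M9. The mean was 27.1% ± 14.4 (SD, n = 2) late and 9.31% ± 4.36 (SD, n = 3) early, a difference of 17.8 percentage points (exact two-sided permutation test, p = 0.2, which is the smallest p that 2 against 3 libraries can give). Controls had 71.4% ± 23.8 (SD, n = 3), and no late library reached any control. Over hormone-rich cells alone, the late libraries had 44.5% and 19.9% and the early ones 20.2%, 9.62% and 22.4%, so that STZ_M9 fell within the early range. The exact two-sided permutation test on these shares gave p = 0.6. The libraries between the arms, at day 30, day 42 and month 2, had 8.3%, 6.25% and 3.31%. The intervals cover counting error only.

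**Figure D1:**
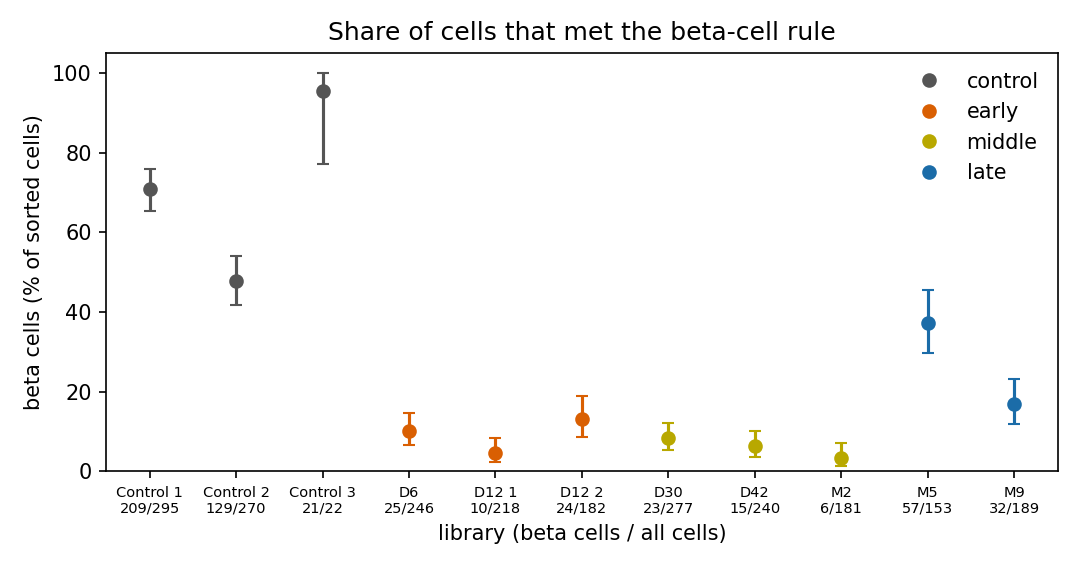
Share of sorted cells that met the beta-cell rule, 1 point a library with its exact 95% binomial interval; counts of beta cells and all cells stand under each name. STZ_M5 (37.3%) and STZ_M9 (16.9%) lie above the early libraries (4.59 to 13.2%) and below the controls (47.8 to 95.5%).

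Between early and late, 1 gene passed the test. Of 11271 genes tested with edgeR's quasi-likelihood test and Benjamini-Hochberg adjustment at 0.05, 1 was higher late (0.00887%) and 0 were lower (0%). At an unadjusted p under 0.05, 403 were higher (3.58%) and 395 lower (3.5%). DESeq2 on the same sums called 7 higher and 18 lower, and the fit with a replicate block called 5 and 9. In 1304 genes (11.6%) both late libraries lay above all early ones, and in 995 (8.83%) both lay below.

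The gene that rose was Ache, which encodes acetylcholinesterase, the enzyme that breaks down acetylcholine. It lies on the plus strand at chr5:137287519-137294466 (mm10). Ache stood at 50.1 CPM in STZ_M5 and 68.5 CPM in STZ_M9, against 0.683 CPM in STZ_D6 and 0 in both STZ_D12 libraries. The controls had 0.893, 1.69 and 0.785 CPM. The late libraries were thus the only ones of the 8 above 2 CPM. The log2 fold change late against early was 7.69 ± 0.77 (SE), adjusted p = 0.000736 by edgeR's quasi-likelihood test. It rests on 1 UMI in the early arm against 437 late, a ratio of 226 with a 95% counting interval of 40.4 to 8962. With 1 mean for each group over all 17 libraries the call was lost (log2 8.57, adjusted p = 0.316).

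Ache was found in many late cells. With every cell thinned to 31704 UMIs, 20 of 50 STZ_M5 beta cells (40%) and 21 of 32 in STZ_M9 (65.6%) had a UMI. In the early libraries 1 of 21, 0 of 8 and 0 of 22 cells had one, and 0 of 22 allows a share of up to 13.6%. In controls it was 1.09%, 4.17% and 5.26%. Without thinning the late shares were 45.6% and 81.2%. In STZ_M5 1 cell held 44.4% of the Ache UMIs, and its 3 sequencing runs had unscaled CPM of 80.3, 24.6 and 27.3. Before thinning, Ache had a UMI in 2 of 23 beta cells at day 30, 5 of 15 at day 42 and 0 of 6 at month 2. Alpha cells, chosen by the same rule turned on Gcg, carried Ache in all 8 libraries. Their unscaled CPM was 13.1 in STZ_D6, 3 and 10.7 in the STZ_D12 libraries, 22.3 in STZ_M5 and 45.3 in STZ_M9, and 9.68 to 42.2 in controls. Gcg in the beta cells was 2143 CPM in STZ_M5 and 5187 in STZ_M9, against 1054 to 1873 early and 1133 to 5600 in controls. With the cells rich in another hormone left out, Ache had a log2 fold change of 7.59, adjusted p = 0.00178.

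**Figure D2:**
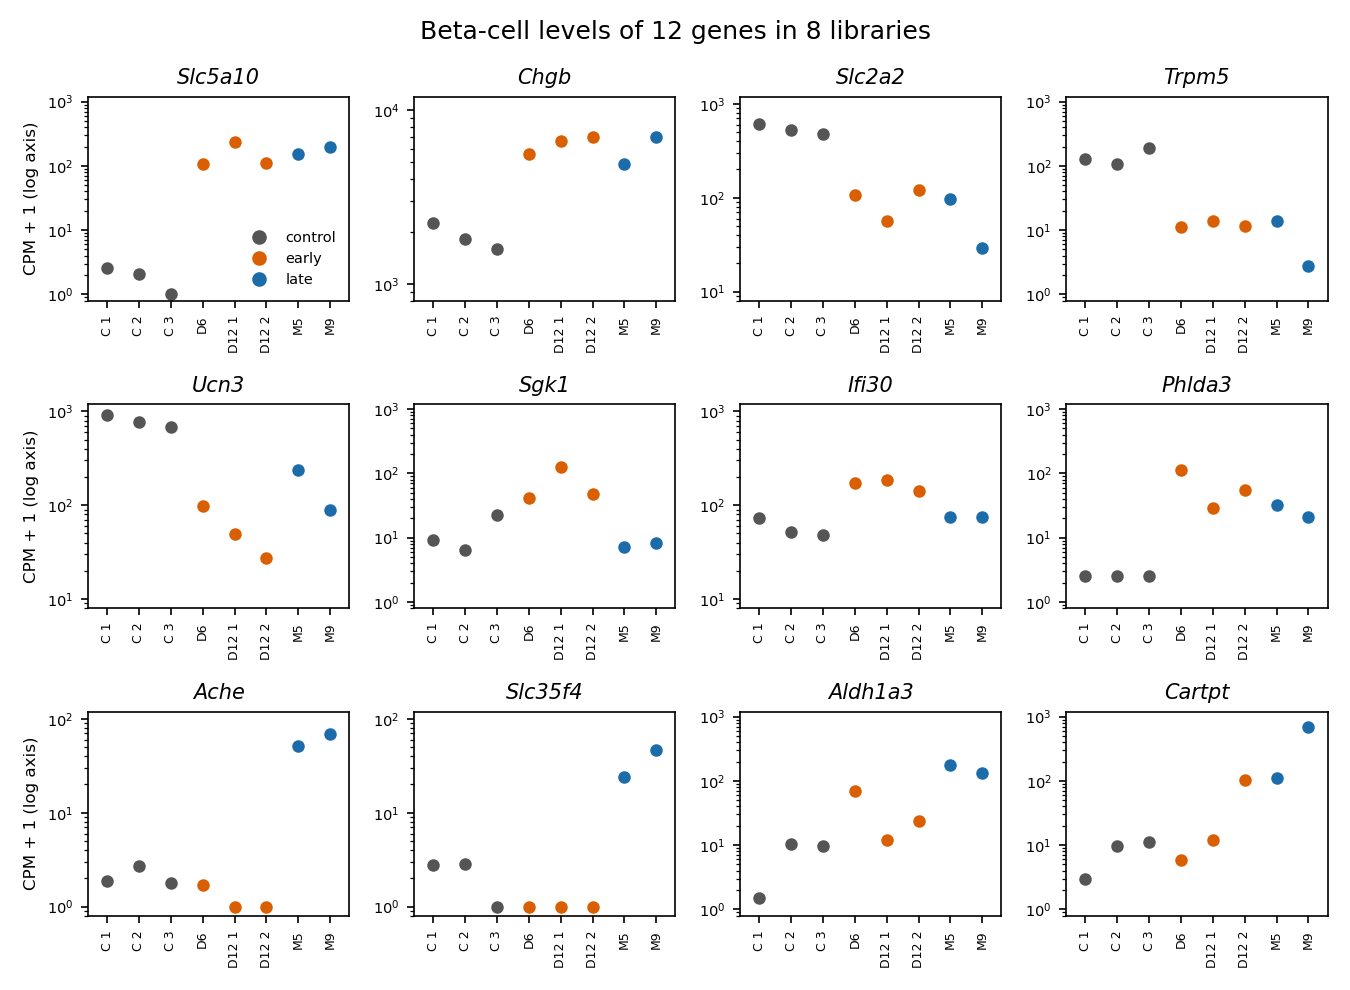
CPM plus 1 on a log axis for 12 genes, 1 point a library (C, control; D and M, days and months after STZ). The first row shows genes beyond the controls in every early and late library, with Slc2a2 and Trpm5 lowest in STZ_M9. The second row shows genes whose log2 change late against early points toward the controls. There STZ_M9 for Ucn3 and STZ_M5 for Phlda3 lie within the early range, and Phlda3 stays above the controls. The third row shows genes higher late than early. Cartpt in STZ_M5 (111 CPM) stands close to STZ_D12 replicate 2 (102 CPM).

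Genes that differed from control at day 30 to month 2 lay about as far from control late as early. A set of STZ genes was taken from libraries outside both arms, at day 30, day 42 and month 2, against controls. There 52 genes rose (0.574% of 9064 tested) and 50 fell (0.552%). The 52 had a median log2 change against control of 1.91 in those libraries, 1.78 early and 1.78 late. Their median late against early was 0.13, beside 0.01 over all genes. Of the 52, 20 (38.5%) were lower late than early, against 49.3% of all genes. The 50 that fell had medians of -2.08, -1.74 and -1.70, with -0.06 late against early, and 23 of them (46%) were higher late, against 50.7% of all genes. None of the 102 genes was called late against early. In the late arm 50 of the 52 lay above all controls in both libraries, and 45 of the 50 lay below. Over all genes these shares were 16.6% and 16.1%. The controls helped choose both sets, so those counts and the medians against control are a description. Genes that changed early and were back near control at day 30 to month 2 could not enter the sets. The number called at day 30 to month 2 depended on single libraries. It was 38 without control replicate 1, 43 without control replicate 2, 55 without STZ_D30, 54 without STZ_D42 and 247 without STZ_M2, which had 6 beta cells.

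**Figure D3:**
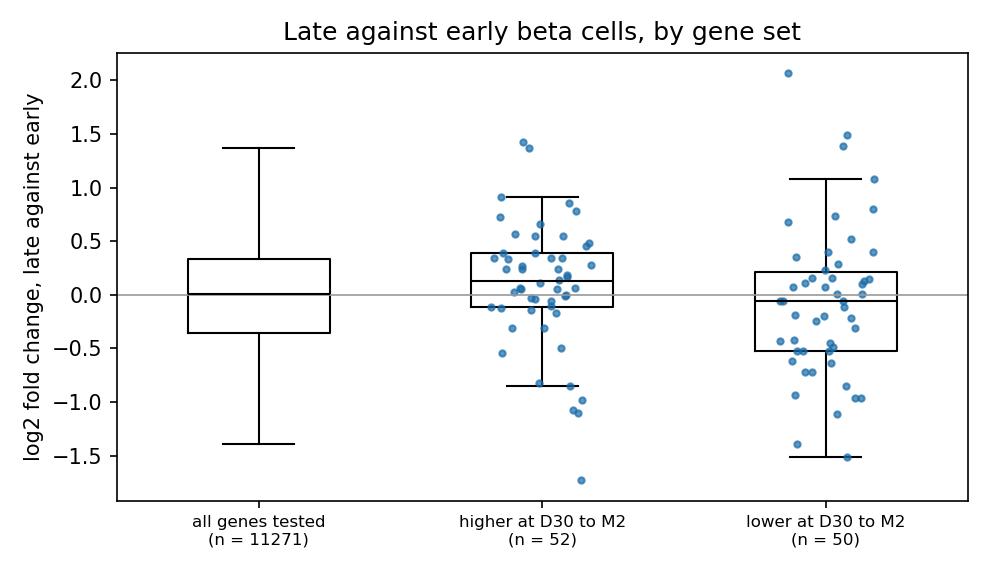
Log2 fold change late against early for all 11271 genes and for the genes called at day 30 to month 2 against controls. Boxes give the quartiles and whiskers reach up to 1.5 box lengths, with outlying genes of the first box not drawn. The sets that rose (52 points) and fell (50 points) have medians of 0.13 and -0.06.

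Against controls, 82 genes were higher (0.728%) and 34 lower (0.302%) early, and 162 were higher (1.44%) and 61 lower (0.541%) late. These comparisons share the 3 controls, so their values are only set side by side. Single libraries moved both counts. The early count of 116 was 64, 47 and 72 without control replicates 1, 2 and 3, and 70 without STZ_D12 replicate 2. The late count of 223 was 116 and 98 without control replicates 1 and 2, and 85 without STZ_M9, of which 71 were among the 223.

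Slc5a10, a sugar transporter of the sodium-coupled family that is nearly silent in control beta cells, stayed high. It had 154 CPM in STZ_M5 and 195 in STZ_M9, within the early values of 106, 237 and 110. Controls had 1.56, 1.04 and 0. Late and early libraries overlapped and all lay far above the controls. The log2 change was 6.88 ± 0.46 (SE) early and 7.12 ± 0.47 late against control (adjusted p = 3.45e-06 and 2.85e-06, edgeR's quasi-likelihood test), and 0.24 ± 0.36 late against early. At the thinned depth 66% of STZ_M5 and 40.6% of STZ_M9 cells had a UMI, beside 47.6%, 37.5% and 59.1% early and at most 3.26% in controls.

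Of 18 tested genes of immature or dedifferentiated beta cells, 7 rose early and 8 rose late against control, 0 fell, and the medians were 2.17 and 1.40. Over all genes 0.728% rose early and 1.44% late, with medians of -0.02 and -0.02. Late against early 0 of 18 were called, with a median of -0.63, which was -0.068 without STZ_D12 replicate 1, -0.41 without STZ_D12 replicate 2, -0.33 without STZ_M9 and 0.12 without cells rich in another hormone. Rbp4, a retinol carrier, had 608 and 425 CPM late and 375 to 570 CPM early, against 51.8 to 90.7 in controls. Gast, the gastrin gene of the fetal pancreas, had 48.4 and 63.1 CPM late and 18.4, 23.9 and 31.5 early, against at most 4.76 in controls. Both late values of Gast exceeded all early ones, at a log2 change of 1.17 ± 0.43 that did not pass (adjusted p = 0.613). Dlk1, an imprinted Notch-like membrane protein, had 9.43 CPM in STZ_M5 and 52.4 in STZ_M9, against 40.3, 73.6 and 76.8 early and at most 1.57 in controls. The other members called in both arms were Tspan8, Cd24a and Cd81. Rbp4 is also abundant in delta cells. Delta markers summed to 1663 and 1643 CPM late, 1153, 6255 and 1001 early and 305 to 329 in controls. PP markers summed to 4451 and 9496 CPM late, 2960, 12893 and 6850 early and 1230 to 4439 in controls. These sums include Sst and Ppy, which the cell rule limits. The part of delta and PP cells in these values was not tested.

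Within the granule list, 0 of 21 members were called late against early (median 0.06). Chgb, a chromogranin that packs granules, had 4887 and 6986 CPM late and 5598 to 6998 early, against 1590 to 2237 in controls, so that both arms lay above every control. Ins1 had 54024 CPM in STZ_M5 and 25363 in STZ_M9, against 53484, 60807 and 36359 early and 87030 to 94846 in controls. Late against control it fell by 1.19 ± 0.29 on the log2 scale (adjusted p = 0.0455), which was not called without STZ_M9 or without any 1 of the controls. Ins2, which the cell rule uses, had 81528 and 60414 CPM late and 67434 to 110631 early. Vgf, a granule peptide precursor, had 79.9, 29.4 and 84.8 CPM early, 30.7 and 11.6 late and 10.2 to 14.5 in controls. Its late and early values overlapped at 29.4 and 30.7 CPM (log2 -1.65 ± 0.47, adjusted p = 0.46).

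Beta-cell maturity genes stayed low. Of 17 tested members, 8 fell early and 10 fell late against control, 0 rose, and the medians were -1.65 and -2.04. Among all genes tested 0.302% fell early and 0.541% late, with medians of -0.02 and -0.02. Late against early the list's median was -0.30 and 0 members were called. That median had no stable sign, at 0.26 without STZ_M9 and -0.93 without STZ_M5. Slc2a2, the GLUT2 gene through which STZ enters, had 95.8 CPM in STZ_M5 and 28 in STZ_M9, against 105, 55.2 and 119 early and 480 to 616 in controls. Trpm5, a calcium-activated cation channel that aids insulin release, had 13.1 and 1.79 CPM late, 10.2, 12.9 and 10.7 early and 107 to 189 in controls. Gad1, which makes GABA, had 8.71 and 0.596 CPM late against 21.9, 1.84 and 1.6 early and 92.7 to 126 in controls. In each of the 3 genes every early and late library lay below every control, and STZ_M9 was the lowest of the 8 libraries tested. Sytl4 (granuphilin, which docks insulin granules) had 60.2 and 15.5 CPM late against 103, 38.6 and 97.6 early and 234 to 274 in controls. Nkx6-1, a transcription factor of beta-cell identity, was at 85.4 and 85.5 CPM late, within the early 75.4 to 190, and below the 196 to 287 of controls.

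Ucn3 had the smallest unadjusted p of the maturity genes late against early. It lies on the minus strand at chr13:3940688-3945349 (mm10) and encodes urocortin 3. Ucn3 had 97.7 CPM in STZ_D6, 47.8 and 26.1 in the STZ_D12 libraries, 235 in STZ_M5 and 87.5 in STZ_M9. Controls had 925, 770 and 689 CPM. STZ_M5 stood above all early libraries, whereas STZ_M9 lay within their range, and both remained under every control. Late against early the log2 change was 1.49 ± 0.44 (SE), unadjusted p = 0.00443 and adjusted p = 0.484, which did not pass. Late against control it fell by 2.30 (adjusted p = 0.0178, not called without STZ_M9 or without control replicate 1 or 2), and early against control by 3.79 (adjusted p = 0.000548). Among the 50 genes that fell at day 30 to month 2, Ucn3 was the 1 that was nearer control late at an unadjusted p under 0.05, while 4 were further from it (Sytl4, Ptprf, Rasd1 and B2m).

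Single cells show how Ucn3 was spread. At the thinned depth 92.4%, 88.3% and 89.5% of control cells had at least 6 Ucn3 UMIs, a level taken from those cells. In STZ_M5 18 of 50 cells (36%) had as many, and in STZ_M9 6 of 32 (18.8%). The early libraries had 6 of 21, 1 of 8 and 0 of 22 such cells. The highest STZ_M5 cell had 32 Ucn3 UMIs and the highest STZ_M9 cell 25, against 11, 9 and 5 in early cells and control medians of 22 to 28. In STZ_M5 Ucn3 was found with Slc5a10 in 23 cells and without it in 13, and with Aldh1a3 in 23 cells and without it in 13. In STZ_M9 Ucn3 was found with Slc5a10 in 4 cells and without it in 11, and with Aldh1a3 in 11 and without it in 4. The 3 sequencing runs of STZ_M5 had unscaled Ucn3 CPM of 311, 115 and 191, all above the 108 and 92.5 of the STZ_D6 runs.

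**Figure D4:**
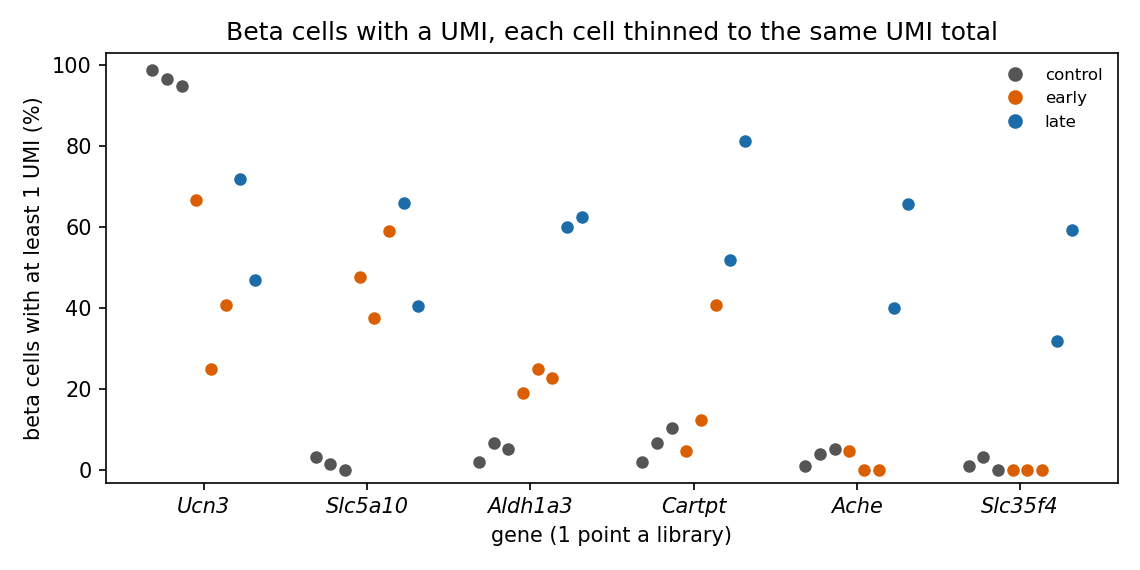
Percent of beta cells with at least 1 UMI of each gene, every cell thinned to 31704 UMIs, 1 point a library. The late libraries (blue) lie within or near the early ones (orange) for Ucn3 and Slc5a10, and above them for Aldh1a3, Cartpt, Ache and Slc35f4.

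Other genes were higher early than in controls and near the controls late, and none of them passed late against early. Sgk1, a glucocorticoid- and stress-induced kinase at chr10:21882184-21999903 (plus strand, mm10), had 40.3, 125 and 47.5 CPM early, 6.05 and 7.15 late and 8.04, 5.34 and 21.2 in controls. Both late values lay below all early ones, within the control range (early against control it rose by 2.76, adjusted p = 0.0201, and late against early the log2 change was -3.36 ± 0.63, adjusted p = 0.259). In STZ_D6 1 cell held 89.8% of the Sgk1 UMIs, and in STZ_D12 replicate 1 1 cell held 55.9%. Ifi30, a lysosomal thiol reductase, had 172, 186 and 140 CPM early and 73.5 and 74.7 late, beside 47.1 to 71.4 in controls. Igfbp7, a secreted IGF-binding protein, had 105, 186 and 200 CPM early and 66 and 52.4 late, beside 74.8 to 85.6 in controls. In both genes the arms did not overlap, and early against control Ifi30 rose by 1.53 (adjusted p = 0.00449) while Igfbp7, at 1.06, did not pass (adjusted p = 0.0665). Of the 52 genes raised at day 30 to month 2, Eif4g3, Uchl1, Sult1d1 and Ffar4 were nearer control late at an unadjusted p under 0.05, with log2 changes of -0.98, -0.83, -0.85 and -1.73.

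Of 20 tested members of the p53 list, 2 rose early against control (Phlda3 and Aen) and 1 late (Phlda3), with medians of 0.39 and 0.29. Among all genes tested 0.728% rose early and 1.44% late, with medians of -0.02 and -0.02. Phlda3, a direct p53 target that restrains Akt, had 112, 27.6 and 54.9 CPM early, 30.7 and 20.2 late and 1.49 to 1.57 in controls. STZ_M5 fell within the early range, STZ_M9 just below it, and all lay above the controls. Late against early the log2 change was -1.38 ± 0.46 (adjusted p = 0.566), and late against control it rose by 4.04 (adjusted p = 0.00104). Cdkn1a, the p21 cell-cycle inhibitor, had 619, 291 and 205 CPM early, 292 in STZ_M5 and 48.8 in STZ_M9, beside 51.1 to 185 in controls. Ccng1 had 319, 103 and 158 CPM early, 172 in STZ_M5 and 59.9 in STZ_M9, beside 49 to 74.4 in controls. For both genes STZ_M5 stayed in the early range and STZ_M9 stood at the control level. Late against early 0 of the 20 were called, and the median was -0.32, or -0.18 without STZ_D6. At an unadjusted p under 0.05 2 of the 20 were lower (Phlda3 and Rrm2b), beside 3.5% of all genes.

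Other genes, like Ache, were low early and high late, without passing the test. Slc35f4, a member of a nucleotide-sugar transporter family at chr14:49298519-49526046 (minus strand, mm10), had 23 CPM in STZ_M5 and 45.9 in STZ_M9. It had 0 UMIs in all 3 early libraries and 1.79, 1.82 and 0 CPM in controls. Late it was at least 43-fold higher than the 3 UMIs that a count of 0 over the early arm allows. It did not pass (adjusted p = 0.0518), but it did with DESeq2, the replicate block, no filter, or cells rich in another hormone left out. At the thinned depth 32% of STZ_M5 and 59.4% of STZ_M9 beta cells had a UMI, and 0 of 23 and 0 of 58 alpha cells of these libraries had one. Zcchc12, a transcriptional co-activator, had 59 and 93.2 CPM late, 2.73, 11 and 9.6 early and 3.2 to 18.1 in controls (log2 3.37 ± 0.63, adjusted p = 0.259). Both genes separated late from all other libraries.

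Aldh1a3, a retinaldehyde dehydrogenase known from failing beta cells, had 178 CPM in STZ_M5 and 131 in STZ_M9. The early libraries had 69.7, 11 and 22.4 CPM and the controls 0.521, 9.38 and 8.64. The arms did not overlap, at a log2 change of 2.09 ± 0.72 that did not pass (adjusted p = 0.582), while late against control it rose by 4.84 (adjusted p = 0.00467). At the thinned depth 60% and 62.5% of late cells had a UMI, against 19%, 25% and 22.7% early and 2.17 to 6.67% in controls. In late cells with Aldh1a3, 15 of 30 (STZ_M5) and 16 of 20 (STZ_M9) also had Ache. Of the cells without Aldh1a3, 5 had Ache and 15 lacked it in STZ_M5, and 5 had it and 7 lacked it in STZ_M9. Whether the 2 genes go together was not tested. Cartpt, a neuropeptide gene also on the PP marker list, had 111 CPM in STZ_M5 and 699 in STZ_M9, against 4.78, 11 and 102 early and 2.01 to 10.2 in controls. STZ_M5 and STZ_D12 replicate 2 were close (log2 3.23 ± 0.88, adjusted p = 0.46, and without STZ_M9 it was not called against control). Of the Cartpt UMIs, 1 cell held 36.6% in STZ_M5 and 1 cell held 32.3% in STZ_M9. The part of PP cells in the Cartpt values was not tested. Cd36, a fatty acid transporter, had 24.2 and 24.1 CPM late and 2.05, 1.84 and 3.2 early, and at most 0.893 in controls. Its late and early values did not overlap (log2 3.26 ± 0.85, adjusted p = 0.446).

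Further genes with the smallest unadjusted p values on the higher side, none past the threshold, were Pappa2, Synpr, Gc, 6330403K07Rik, Ankrd26, Cthrc1, Vstm2a, Gm10800 and Gm10801. In all 9 both late libraries exceeded the early ones, as in 11.6% of all genes, but the choice by smallest p favours such genes. Gc, the vitamin D binding protein that also marks alpha cells, had 561 and 427 CPM late against 158 to 224 early and 64.5 to 148 in controls. Ttr, another alpha marker, had 9018 CPM in STZ_M5 and 4394 in STZ_M9, against 3129 to 4000 early and 2995 to 4394 in controls. Alpha markers summed to 12298 and 10779 CPM late, 5896, 5893 and 6600 early and 5321 to 11026 in controls, with 1 of 12 listed markers at 0 in each late library and 2 or 3 in the early ones. These sums include Gcg, which the cell rule limits. The part of alpha cells in Gc was not tested. Gm10800 had 480 CPM in STZ_M5, and 49.6% of its UMIs came from 1 cell. On the lower side stood Slc40a1, Hist1h1e, Msln, Rpusd1, Hpgds, Ccna2, B630019K06Rik and Hist1h2ap beside the genes above. Slc40a1, the iron exporter ferroportin, had 26.6, 20.2 and 40.5 CPM early, 9.92 and 6.55 late and 40.1 to 53 in controls, so that both late values lay below all others. Against control it fell by 2.45 late (adjusted p = 0.0042) and was at -0.59 early (adjusted p = 0.533).

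Among genes induced by glucose, 0 of 14 tested were called late against early (median -0.09, from -0.13 to 0.16 with 1 STZ library left out). Against control 2 members rose early, among them Arrdc4, and 4 late, among them Txnip, Arrdc4 and Fbp1, the last not called without STZ_M9 (adjusted p = 0.313) or with DESeq2 (adjusted p = 0.0529). Among all genes tested 0.728% rose early and 1.44% late against control. Txnip, an arrestin-like inhibitor of thioredoxin and glucose uptake, had 1582 CPM in STZ_M5 and 1261 in STZ_M9, against 297 in STZ_D6, 1168 and 1407 in STZ_D12 and 296 to 446 in controls. Of the 5 STZ libraries STZ_D6 alone was at the control level. The late rise was 2.03 ± 0.43 on the log2 scale (adjusted p = 0.0236, not called without either late library or without control replicate 2 or 3). Fbp1, a gluconeogenic phosphatase, had 15.5 CPM in STZ_M5 and 122 in STZ_M9, against 4.1, 0 and 14.4 early.

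Because several of these genes are known targets of the glucose-sensing factor ChREBP (Mlxipl), the 250 bases before their starts were searched on both strands for the carbohydrate response element, read as CACGNG, any 5 bases and CNCGNG. It occurred in 92 of 32851 RefSeq promoters (0.28%) and in 2 of the 13 list members with a promoter, Txnip and Pklr. The Txnip promoter (chr3:96557707-96557956, plus strand, GRCm38.p6, RefSeq) is shown with the match in capitals, since Txnip is the list's most abundant called member.
Txnip: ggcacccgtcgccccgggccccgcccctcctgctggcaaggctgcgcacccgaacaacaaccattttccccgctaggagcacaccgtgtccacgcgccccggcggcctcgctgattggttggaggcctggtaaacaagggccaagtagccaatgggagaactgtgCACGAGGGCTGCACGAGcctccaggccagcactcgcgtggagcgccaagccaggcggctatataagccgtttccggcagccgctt
The match describes the sequence and says nothing of binding in these cells. Since the list was made of genes known to answer glucose, matches among its members are a description and not a test. No match was found for Arrdc4 or Fbp1.

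No member of the stress and metabolic lists was called late against early. In the unfolded protein response list 5 of 25 members were higher late at an unadjusted p under 0.05 and 0 lower, with a median of 0.40 and 0 called. Over all genes 3.58% were higher and 3.5% lower at that p, which also stands beside the counts of the lists that follow. Derl3 and Dnajb9, which help remove misfolded proteins, had 119 and 960 CPM in STZ_M5, but 30.7 and 504 in STZ_M9, beside 15 to 40.5 and 261 to 452 early. The list's median was 0.03 without STZ_M5 and 0.71 without STZ_M9. The ATF4 and CHOP targets had 0 of 21 members at an unadjusted p under 0.05. In fatty acid use 4 of 22 members were higher at an unadjusted p under 0.05, among them Cd36, Pdk4 and Cpt1a, and 0 lower, with a median of 0.39, which was 0.07 without STZ_M9. Pdk4, the kinase that turns cells from glucose to fat oxidation, had 1.94 CPM in STZ_M5, 25 in STZ_M9 and 0 UMIs early. In cholesterol synthesis 3 of 22 were higher (Nsdhl, Insig1 and Fdft1), with a median of 0.32, which was 0.05 without STZ_M9.

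Among oxidative phosphorylation genes both late libraries lay above all early ones in 18 of 86 and below in 1, with a median of 0.15 and 0 called. That median was 0.03 without STZ_M5 and 0.23 without STZ_M9. Among cytosolic ribosomal proteins these counts were 25 and 9 of 82, with a median of 0.10. Over all genes the shares were 11.6% above and 8.83% below. In antigen presentation 0 of 17 were called late against early, and B2m, the shared chain of MHC class I, had 68.9 and 47.9 CPM late against 81 to 106 early and 98.2 to 167 in controls. Beta-cell transcription factors had 0 of 19 called, with 3 lower at an unadjusted p under 0.05, among them Glis3 and St18. In the lists of glucose sensing (22 tested), glycolysis (17), oxidative stress (26), senescence (7), disallowed genes (3), circadian clock (15) and immediate early genes (19), 0 were called. With the range when 1 STZ library was left out, the medians were -0.05 (-0.13 to 0.03) for glucose sensing, 0.00 (-0.05 to 0.13) for glycolysis and 0.04 (0.03 to 0.11) for oxidative stress. They were -0.56 (-0.90 to -0.43) for senescence, -1.07 (-1.69 to -0.19, the latter without STZ_D6) for disallowed genes and -0.26 (-0.47 to 0.17, the latter without STZ_M5) for the clock. For immediate early genes the median was 0.31, but -0.18 without STZ_D12 replicate 2, -0.04 without STZ_M5 and -0.15 without STZ_M9.

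Cell division genes had the lowest median of all lists, -4.64 over 20 tested members (-4.07 with a gene at 0 in an arm set at its bound). At an unadjusted p under 0.05 11 were lower late and 0 higher, and 0 were called. Mki67, the proliferation antigen, had 8.2, 188 and 1.6 CPM early, 2.18 and 0.893 late and 0 to 12.6 in controls. All 102 Mki67 UMIs of STZ_D12 replicate 1 came from 1 of its 10 cells, and 1 cell there held 99.5% of the UMIs of Top2a, a topoisomerase of dividing cells. Without that library the list's median was -1.69. Cells with an Mki67 UMI numbered 3 of 57 in STZ_M5, 2 of 32 in STZ_M9, 3 of 25 in STZ_D6 and 2 of 24 in STZ_D12 replicate 2.

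Markers of other cells were followed across the arms. Acinar markers summed to 26553 and 26378 CPM late, 26549 to 37887 early and 7973 to 46777 in controls, with 0 of 18 at 0 in any library. The acinar sums include Prss2, which the cell rule limits. Immune markers summed to 197 and 144 CPM late and 169 to 460 early. Endothelial and stromal markers summed to 2.18 and 3.28 CPM late and 0.533 to 20.2 early, and none had enough counts to be tested. The 4 haemoglobin genes summed to 93.8 and 48.5 CPM late, 8.88, 0 and 23.5 early and 0.391 to 7.86 in controls. All 4 were higher in both late libraries than in any early one, as were 11.6% of all genes, and 0 were called late against early. Hba-a2 and Hbb-bs were called higher late against control, beside 1.44% of all genes. The part of these cells in the results was not tested.

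The late arm is not uniform. STZ_M9, with interrupted implants, differed from STZ_M5 in several beta-cell genes, and with 1 library each there is no test. The libraries also differed in time after STZ, age of the mice, sequencing run and median UMIs per cell (67131 in STZ_M5, 101422 in STZ_M9). Cells rich in a second hormone or in Prss2 were 5.26% in STZ_M5 and 37.5% in STZ_M9. These differences and the implants cannot be told apart. Intervals are exact Poisson intervals for counting error only. Ucn3 was 235 CPM (221 to 251) in STZ_M5 and 87.5 (77.8 to 98.1) in STZ_M9. G6pc2, a glucose-6-phosphatase of the islet, was 1666 (1627 to 1706) and 532 (507 to 557) CPM. Slc2a2 was 95.8 (86.6 to 106) and 28 (22.6 to 34.3) CPM. These genes were thus each lower at month 9, outside both intervals, and so were Trpm5 and Ins1 above. Genes higher after STZ than in controls went either way. Dlk1 (5.56-fold), Cartpt and Fbp1 were higher at month 9, and Cdkn1a was lower, at 292 (276 to 309) and 48.8 (41.6 to 56.9) CPM. Slc5a10 was 154 (142 to 166) and 195 (180 to 211) CPM and Aldh1a3 178 (165 to 191) and 131 (119 to 144).

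Of 4620 genes with at least 200 UMIs over both libraries, the 8 with the largest ratios toward month 9 were Hspa1a, Fbp1, Cartpt, Dlk1, Pcp4, Fbp2, Try10 and Lefty1, at 3.73-fold (Lefty1) to 40.1-fold (Hspa1a). Hspa1a, an inducible heat shock chaperone that also answers cell handling, had 1.69 CPM in STZ_M5 and 67.9 in STZ_M9, beside 21.9, 0 and 0 early and 59.7 to 102 in controls. Fbp1 was 7.87-fold and Cartpt 6.3-fold higher at month 9. Toward month 5 they were Cox6a2, Spp1, Csn3, Sympk, Chac1, Gm16702, Gm26870 and Gm10800. Cox6a2, a cytochrome c oxidase subunit of mature beta cells, had 252 UMIs in 21 of 57 STZ_M5 cells and 0 UMIs in STZ_M9, which makes it at least 68.2-fold higher at month 5 than 3 UMIs in STZ_M9 allow. It had 61 CPM in STZ_M5 and 50.6, 0 and 17.1 early, against 309 to 375 in controls. Single cells carried much of others, as 1 STZ_M5 cell held 51.8% of the Spp1, 90.8% of the Csn3 and 76.9% of the Sympk UMIs, and 1 STZ_M9 cell held 56.6% of Try10.

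**Figure D5:**
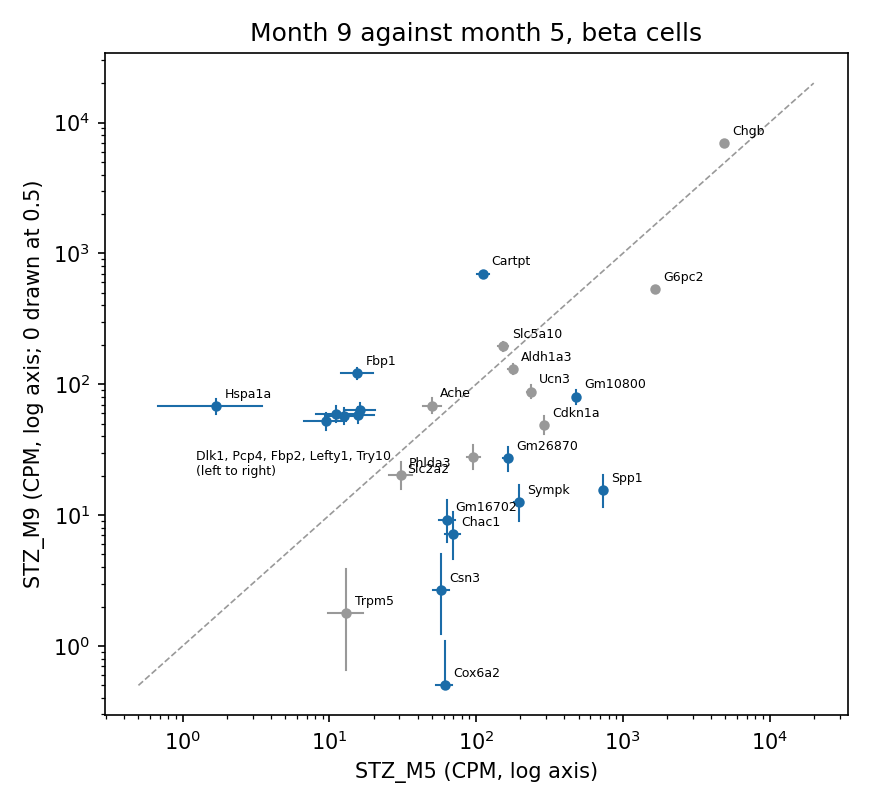
Beta-cell CPM in STZ_M5 (horizontal) and STZ_M9 (vertical) on log axes, with exact 95% Poisson intervals; blue points are the 16 genes with the largest ratios, grey points genes described above, and the dashed line marks equality. Cox6a2 (0 UMIs in STZ_M9) is drawn at 0.5 CPM.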

How the data were processed

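Single RFP-positive pancreatic cells were profiled by modified STRT-seq with unique molecular identifiers (UMIs). The authors deposited UMI counts for 40824 genes in 2999 cells, and a signal table that equals, within 0.01, a gene's count per 100000 UMIs of its cell with 8 genes (hormone genes, Iapp and Yam1) left out of the total. The submitters' processing notes name mm10, UMI-tools 0.5.0, TopHat2 2.1.0, SAMtools 1.3.1 and featureCounts 1.5.3. No doublet removal was applied here. Strand use in counting is not given in the sources used here, so overlapping genes are uncertain, as are near-identical copies (histone, trypsin, haemoglobin, Gm10800 and Gm10801).

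Beta cells were chosen on the signal table, and their counts were summed per library. The sums were tested with edgeR 4.0.16 (R 4.3.3; TMM, filterByExpr, quasi-likelihood F test, Benjamini-Hochberg at 0.05) in 1 fit of 8 libraries with 5 residual degrees of freedom, tested on simulated data. Day 30 to month 2 came from a fit of 6 libraries. A standard error is the size of the log2 change divided by the root of its F statistic. Shares were compared by exact permutation (SciPy 1.17.1). Thinning to 31704 UMIs left out 7 cells in STZ_M5, 0 in STZ_M9 and 4, 2 and 2 in the early libraries. Other settings were DESeq2 1.42.0, RLE scaling, no filter, a block, thinned cells, cells with Gcg, Sst, Ppy or another such gene at 1000 or more left out, 1 mean per group, the 5 STZ libraries alone and each library left out. Promoters on chromosome 18 were not searched, and some genes are not reported here.

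The genes named were the 12 per direction called with arms that do not overlap or, failing that, with the smallest unadjusted p, 25 listed genes, list members by smallest p or call, and the 8 largest ratios per direction between months. Rbp4 and the counts of cells were picked after their values were seen. The members, the beta-cell rule, the 21 gene lists and the 10 marker lists were chosen with earlier results of these data known.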

Additional observations from a re-analysis of the deposited data

How the results depend on the processing

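The 1 gene called late against early, Ache, was also called with the 5 STZ libraries alone, RLE scaling, thinned cells and each library left out (1 call each). The count was 0 with 1 mean per group, 25 with DESeq2, 150 without the filter, 14 with the replicate block and 2 without cells rich in another hormone. In the same order (without the last), the 116 early calls against control became 37, 318, 467 and 76, and 47 to 120 with 1 library left out, and the 223 late calls became 119, 364, 522 and 121, and 85 to 184. The 102 calls at day 30 to month 2 became 224 with DESeq2, 295 without the filter, 31 with the replicate block and 38 to 247 with 1 library left out. The difference in beta-cell share was 14.8 points over hormone-rich cells and 7.62 to 27.9 with 1 library left out. The causes were not tested, beyond the fewer libraries or more genes that a setting brings.

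Among 102 genes and 1316 refitted values late against early, 1226 kept direction and side of the threshold, 70 passed newly, 1 was lost and 19 changed sign, none of them called. With 1 mean per group G6pc2 was at -0.18, Cox6a2 at -4.08 and Rbp4 at -0.0030, with thinned cells Trpm5 was at 0.032 and Rbp4 at -0.30, and without cells rich in another hormone Chgb was at 0.13. With 1 library left out the log2 values ran from -1.77 to 0.010 for Slc2a2, -0.93 to 0.72 for G6pc2, -2.59 to 0.26 for Trpm5, -3.89 to 1.53 for Gad1 and -9.74 to 1.42 for Cox6a2. They ran from -0.98 to 0.12 for Ins1, -0.26 to 0.086 for Iapp, -0.74 to 0.0026 for Nkx6-1, -0.38 to 0.13 for Chgb and -0.22 to 0.30 for Rbp4. The batch numbers of controls 1 and 2 and both STZ_D12 libraries correlated at 0.15 and 0.0947 in their deviations, over 2 pairs, so the numbers were not taken as pairing. Depth limits genes at or near 0 in the early arm, where day 12 replicate 1 had 10 cells. Late libraries number 1 per time point, so that month 5 and month 9 have no replicate, and leaving out either leaves a lone sample assumed to vary like the other groups.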
